A study of Saccharomyces cerevisiae with 8 samples.

Results

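Growth of pooled yeast mutants in 20 µM selenomethionine (SeMet) was compared with growth in 12 µM SeMet, using the 3 arrays of 20 µM and the 2 arrays of 12 µM among the 8 arrays of the series. SeMet is the selenium analogue of methionine. Cells take it up with the methionine permeases, incorporate it in place of methionine, and convert it through S-adenosylmethionine and transsulfuration into selenocysteine. Proteasomes and the ESCRT complexes, which sort ubiquitinated membrane proteins into the vacuole, remove abnormal proteins, whereas ribosomes and their assembly factors set the rate at which proteins are made.

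The pool held haploid deletion strains derived from BY4741 (MATa with his3, leu2, met15 and ura3 mutations) and haploid DAmP strains, in which the transcript of an essential gene is destabilised. All strains therefore share the met15 mutation, which blocks the incorporation of inorganic sulfur into homocysteine, and a DAmP strain keeps a reduced amount of its protein. The first group was grown for 10 generations with 20 µM SeMet and the second for 10 generations with 12 µM SeMet, in synthetic complete medium with added methionine and cysteine. On each array a treated pool was compared with an untreated pool, and the remaining 3 arrays compared untreated cells after 16 h with the pool at the start. The relative fitness score of a strain is log2(SeMet/untreated), averaged over the probes that carry its gene name. The sample labels call the arrays of a group biological replicates. They do not say whether the arrays of different doses were set against the same untreated cultures. The paper describes untreated cultures and cultures of both doses started from pregrown pooled strains, so a shared untreated culture is possible. Deletion and DAmP strains cannot be told apart by the gene names. A strain was tested when at least 2 arrays of each dose gave a value. This was met by 4364 strains, of which 4321 had all 5 values, 43 lacked 1 value at 20 µM and 689 were read by 1 probe.

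Scores were wider at 20 µM than at 12 µM on every array. The SD over strains was 0.761, 0.749 and 1.047 in experiments 1, 2 and 3 at 20 µM, against 0.407 and 0.512 in experiments 1 and 2 at 12 µM. The groups did not overlap, and experiment 3 at 20 µM stood apart as the widest array. An exact permutation test of 3 against 2 arrays cannot give a p below 0.1, so no test was made. The upper tail differed more than the lower tail. The 99th percentile of the scores was 2.38, 2.64 and 4.21 at 20 µM, against 1.13 and 1.24 at 12 µM. The 1st percentile was −2.48, −2.06 and −2.48 at 20 µM, against −1.44 and −1.58 at 12 µM. After each array was divided by its SD over strains and brought to a common spread, the upper tail was still longer at 20 µM, with a 99th percentile of 2.06, 2.32 and 2.65, against 1.82 and 1.60 at 12 µM. In the lower tail the doses overlapped after scaling. The scaled 1st percentile was −2.15, −1.81 and −1.56 at 20 µM, against −2.33 and −2.03 at 12 µM. Differences are therefore given below as deposited (direct) and on this common spread (scaled).

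**Figure D1:**
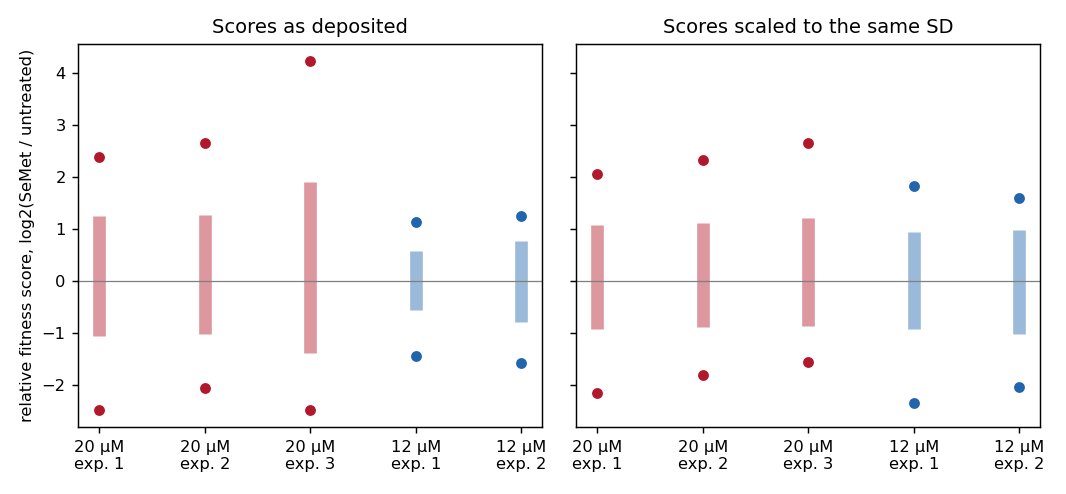
Spread of the relative fitness scores (log2) on the 3 arrays of 20 µM SeMet (red) and the 2 arrays of 12 µM SeMet (blue), as deposited (left) and scaled to the same SD (right). Bars run from the 5th to the 95th percentile over strains and points mark the 1st and 99th percentile. As deposited, the 99th percentile lies between 2.38 and 4.21 at 20 µM, above 1.13 and 1.24 at 12 µM.

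Few single strains were called different between the doses with this number of arrays. limma called 17 of 4364 strains (0.39%) at an adjusted p under 0.05, 10 of them lower (0.229%) and 7 higher (0.16%) at 20 µM, against 594 (13.6%) at an unadjusted p under 0.05. On the scaled scores 5 strains (0.115%) were called, 4 lower (0.0917%) and 1 higher (0.0229%), against 400 (9.17%) unadjusted. In 1480 strains (33.9%) the arrays of the doses did not overlap. In 895 (20.5%) all values at 20 µM lay below those at 12 µM, and in 585 (13.4%) all lay above. With each array centred on its median these were 600 (13.7%) and 775 (17.8%), and on the common spread 711 (16.3%) and 481 (11%), so the larger side depends on the centring. The median difference over all strains was −0.09 as deposited and −0.05 scaled.

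The calls depend on the fit. No strain was called with only the 5 SeMet arrays in the fit (554 at an unadjusted p under 0.05), without experiment 2 at 20 µM (708), or without experiment 1 (457) or 2 (351) at 12 µM, and the lowest adjusted p was 0.0526 when the spread was moderated over every strain with a value. Without experiment 1 or 3 at 20 µM, 56 or 52 strains were called, among them 17 and 16 of the 17.

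Of the 10 mutants that were lower at 20 µM, 7 scored within 0.5 of 0 at 12 µM. Scores near 0 were common at 12 µM and do not set these mutants apart. Over all strains the 10th and 90th percentiles were −0.38 and 0.38 in experiment 1, and −0.52 and 0.52 in experiment 2. Among the 7 mutants were strains of essential genes with different roles. The SDA1 mutant (YGR245C), affected in export of the large ribosomal subunit, scored −2.11, −2.28 and −3.03 at 20 µM, against −0.10 and 0.17 at 12 µM. Its difference of −2.51 was larger than the spread (SE 0.29, adjusted p = 0.0388), and it remained called after scaling, at −1.94 (95% interval −2.40 to −1.48, adjusted p = 0.0201). The URB2 mutant (YJR041C), affected in an early step of 60S biogenesis, scored −1.66, −2.36 and −3.01 at 20 µM, against −0.10 and 0.23 at 12 µM. The doses were separated by more than 1.5 on every array. Its difference was −2.41 (SE 0.35, adjusted p = 0.0394), and −1.87 scaled (adjusted p = 0.0292).

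A pair of the called mutants were affected in the assembly of GPI anchors, which tether proteins to the cell surface. GWT1 (YJL091C) encodes the inositol acyltransferase of GPI synthesis, and its mutant scored −1.70, −2.43 and −2.53 at 20 µM, against −0.19 and 0.24 at 12 µM (difference −2.24, SE 0.28, adjusted p = 0.0388). GPI16 (YHR188C) encodes a subunit of the transamidase that attaches the anchor, and its mutant scored −1.68, −1.92 and −2.52 at 20 µM, against −0.14 and 0.32 at 12 µM (difference −2.13, SE 0.27, adjusted p = 0.0388). GPI16 was also called after scaling, at −1.67 (adjusted p = 0.0292), and GWT1 was not, at −1.74 (adjusted p = 0.065). The list of GPI anchor genes did not follow these mutants, since the median difference of its 20 strains was 0.10, with 5 strains above and 3 below without overlap (13.4% and 20.5% of all strains). LAS21 (YJL062W), which modifies the anchor, was at the other end of the list, scoring 1.40, 1.39 and 2.44 at 20 µM, against 0.54 and 0.49 at 12 µM (difference 1.23, adjusted p = 0.130).

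The KOG1 mutant (YHR186C), affected in the TORC1 subunit that binds substrates, had a difference of a similar size that did not pass. It scored −1.79, −2.63 and −3.87 at 20 µM, against −0.17 and 0.23 at 12 µM (difference −2.79, SE 0.51, adjusted p = 0.0673, and scaled −2.11, adjusted p = 0.0530). KOG1 and GPI16 are separated in the genome by IKI1 only, which was not analysed here. The calmodulin mutant CMD1 (YBR109C) scored −1.97, −1.35 and −2.97 at 20 µM, against 0.04 and 0.60 at 12 µM (difference −2.41, adjusted p = 0.072). In both mutants the groups did not overlap, and the values at 12 µM lay between −0.17 and 0.60.

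The other called mutants that were lower concerned ubiquitin ligation, transcription, splicing and translation. HRT1 (YOL133W) encodes the RING-finger protein through which SCF ligases recruit their E2 enzyme, and it was the called mutant with the lowest scores, at −3.96, −3.20 and −3.69 at 20 µM, against −1.84 and −1.73 at 12 µM (difference −1.83, SE 0.25, adjusted p = 0.0394). It was low at both doses, and its scaled difference was −0.26 (95% interval −1.02 to 0.51). PAF1 (YBR279W), of the elongation complex of that name, scored −1.91, −2.03 and −2.31 at 20 µM, against −0.65 and −0.51 at 12 µM (difference −1.50, adjusted p = 0.0394). SMD1 (YGR074W), a core splicing protein, scored −1.14, −1.41 and −1.91 at 20 µM, against −0.11 and 0.19 at 12 µM (difference −1.53, adjusted p = 0.0428). TEF4 (YKL081W), which encodes a subunit of the exchange factor for the elongation factor eEF1A, scored −1.64, −1.55 and −1.53 at 20 µM, against −0.49 and −0.12 at 12 µM (difference −1.27, adjusted p = 0.0394). PPQ1 (YPL179W), a protein phosphatase, scored −1.29, −1.51 and −1.44 at 20 µM, against −0.16 and −0.07 at 12 µM (difference −1.29, adjusted p = 0.0388). In SMD1, TEF4 and PPQ1 the scores at 12 µM were within 0.5 of 0.

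Probe sets limit some of these values. In 803 of the strains tested (18.4%) and in 6 of the 17 called, not every probe of the strain gave a value on all 5 SeMet arrays, so the averages of the doses rest on different probes. The IWR1 mutant (YDL115C), affected in nuclear import of RNA polymerase II, scored −1.08, −0.43 and −1.21 at 20 µM, against 0.66 and 0.89 at 12 µM (difference −1.68, adjusted p = 0.0394, and scaled −1.80, adjusted p = 0.0201). The only IWR1 probe with values on all 5 arrays read 0.12, −0.01 and −1.21 at 20 µM, against 0.66 and 0.89 at 12 µM (difference −1.14, adjusted p = 0.25). With probes of this kind alone, an alternative chosen after seeing the data, 13 strains were called, and IWR1, RPL8A, RPS0A and YLR358C were not among them.

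**Figure D2:**
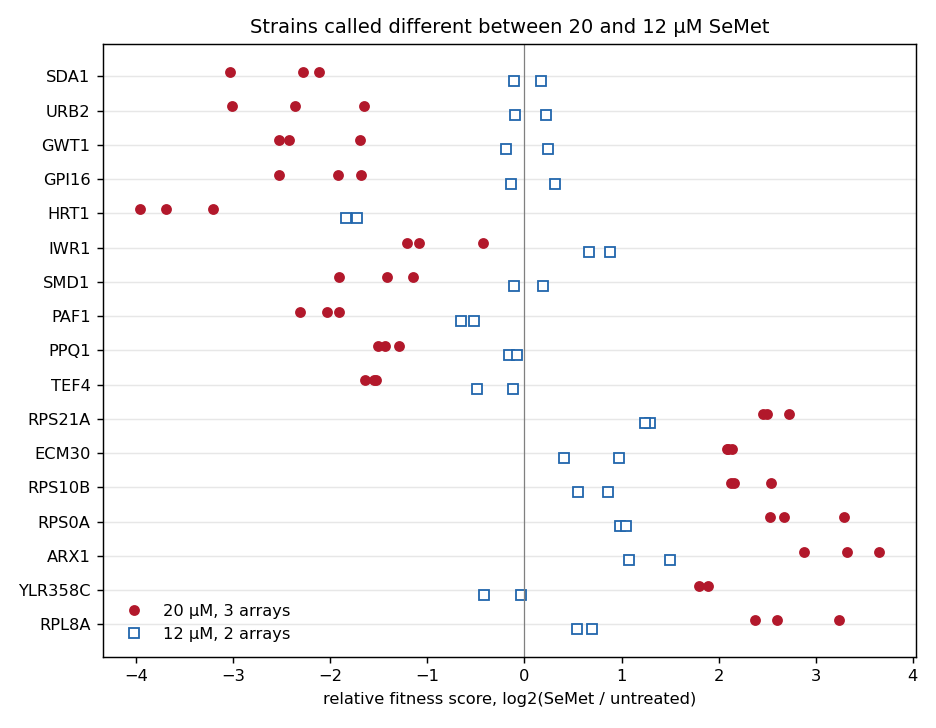
Relative fitness scores (log2) of the 17 strains called different between the doses, on the 3 arrays of 20 µM SeMet (red circles) and the 2 arrays of 12 µM SeMet (blue squares); YLR358C has 2 values at 20 µM. In each strain the values of the doses do not overlap. Most of the strains that are lower at 20 µM lie near 0 at 12 µM, as do most strains tested.

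Of the 7 mutants that were higher at 20 µM, 4 were of cytosolic ribosomal proteins and 1 was of a ribosome export factor. The 4 were 1 of 57 mutants of the large and 3 of 36 of the small subunit, where 0.16% of all strains were called higher. RPL8A (YHL033C) scored 2.38, 2.60 and 3.24 at 20 µM, against 0.70 and 0.54 at 12 µM (difference 2.12, SE 0.32, adjusted p = 0.0394). Only 1 of its probes had all 5 values, and with that probe the score of experiment 3 at 20 µM was 4.61 and the difference 2.58 (adjusted p = 0.10). RPS0A (YGR214W) scored 2.52, 2.67 and 3.29 at 20 µM, against 0.98 and 1.04 at 12 µM (difference 1.81, adjusted p = 0.0394), and with 1 common probe the difference was 1.94 (adjusted p = 0.06). RPS10B (YMR230W) scored 2.13, 2.15 and 2.54 at 20 µM, against 0.86 and 0.55 at 12 µM (difference 1.57, adjusted p = 0.0394). RPS21A (YKR057W), read by 1 probe, scored 2.46, 2.50 and 2.72 at 20 µM, against 1.29 and 1.24 at 12 µM (difference 1.29, adjusted p = 0.0394). These 4 mutants were above 0 on every array of both doses.

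ARX1 (YDR101C), which escorts the large subunit out of the nucleus, scored 2.88, 3.32 and 3.65 at 20 µM, against 1.499 and 1.07 at 12 µM (difference 2.00, SE 0.30, adjusted p = 0.0394). None of these ribosomal mutants was called after scaling, with scaled differences between 0.17 for RPS21A (95% interval −0.36 to 0.69) and 1.22 for RPL8A (0.66 to 1.77). The remaining 2 calls were ECM30 (YLR436C), whose function is not well known, and the open reading frame YLR358C, which overlaps RSC2. ECM30 scored 2.10, 2.08 and 2.14 at 20 µM, against 0.41 and 0.97 at 12 µM, from 1 probe (difference 1.42, adjusted p = 0.0394). YLR358C scored 1.79 and 1.89 in experiments 2 and 3 at 20 µM, against −0.03 and −0.42 at 12 µM (difference 2.07, adjusted p = 0.0394), and it had no probe with values on all 5 arrays.

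The largest differences upward did not pass, and their arrays at 20 µM were spread. Among mutants with at least 2 probes, a value on all 5 arrays and no overlap, the highest was BEM2 (YER155C), a GTPase activator of Rho1, which scored 4.80, 2.47 and 3.05 at 20 µM, against 1.28 and −1.05 at 12 µM (difference 3.33, SE 0.87, adjusted p = 0.120). No BEM2 probe had all 5 values. RPL21B (YPL079W) scored 2.14, 2.72 and 4.82 at 20 µM, against 0.52 and −0.20 at 12 µM (difference 3.07, adjusted p = 0.105). RPP1A (YDL081C), of the ribosomal stalk, scored 2.46, 2.54 and 4.64 at 20 µM, against 0.37 and 0.54 at 12 µM (difference 2.76, adjusted p = 0.099). In both ribosomal mutants experiment 3 at 20 µM was the highest array, and without it the differences were 2.27 and 2.04.

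The next mutants in this order were RPS24A, TUP1, RPL40B, LSM1, ALT1, RPL19A and PTC6, with differences between 2.71 and 2.61 and adjusted p between 0.092 and 0.160. TUP1 (YCR084C) encodes a transcriptional corepressor, and its mutant scored 2.48, 4.004 and 4.496 at 20 µM, against 1.503 and 0.42 at 12 µM. LSM1 (YJL124C), of the complex that activates decapping of mRNA, scored 2.82, 3.69 and 5.03 at 20 µM, against 1.52 and 0.85 at 12 µM. ALT1 (YLR089C) encodes a mitochondrial alanine transaminase and scored 2.49, 2.28 and 4.75 at 20 µM, against 0.24 and 0.83 at 12 µM. In these 3 mutants the lowest array at 20 µM was well above the highest at 12 µM. PTC6 (YCR079W), a phosphatase of mitochondria, scored 1.99, 2.61 and 4.46 at 20 µM, against 0.74 and 0.08 at 12 µM.

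With the same limits on probes, values and overlap, the lowest difference was that of THR4 (YCR053W), the threonine synthase, and its arrays were widely spread. It scored −4.99, −9.15 and −3.11 at 20 µM, against −2.40 and −0.44 at 12 µM (difference −4.33, SE 1.48, adjusted p = 0.230). The peroxiredoxin mutant TSA1 (YML028W), read by 1 probe, scored −3.06, −4.86 and −2.80 at 20 µM, against −1.48 and 0.33 at 12 µM (difference −3.00, SE 0.68, adjusted p = 0.099). FSH3 (YOR280C), a putative serine hydrolase, scored −2.16, −0.79 and −2.88 at 20 µM, against −0.13 and −0.40 at 12 µM (difference −1.68, adjusted p = 0.212). None of these 3 passed, although their doses did not overlap.

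Some mutants were already strongly affected at 12 µM. MET13 (YGL125W) encodes the methylenetetrahydrofolate reductase that supplies methyl groups for methionine synthesis, and its mutant was the lowest of all at 12 µM. It scored −3.71, −3.53 and −3.31 at 20 µM, against −4.41 and −4.65 at 12 µM, from 1 probe. The direct difference was 1.02 (SE 0.25, adjusted p = 0.106), and the scaled difference of 3.77 (95% interval 2.78 to 4.76, adjusted p = 0.0201) was the only higher one called. The scaling stretches scores at 12 µM and shrinks those at 20 µM, so a strain with a very low score at 12 µM gains a positive scaled difference from it. CKB1 (YGL019W), a regulatory subunit of casein kinase 2, also had its lower values at 12 µM. It scored −2.60, −2.94 and −1.65 at 20 µM, against −3.29 and −3.16 at 12 µM, from 1 probe (difference 0.83, adjusted p = 0.369, and 0.46 without experiment 3 at 20 µM). In MET13 and CKB1 every array of 20 µM was above both of 12 µM.

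The other 8 of the 10 lowest mutants at 12 µM were RHB1, PBI2, RRD1, FPK1, YNL040W, GSH2, STP22 and LDB19, with means between −3.43 and −2.63 at that dose. Their direct differences ran from −1.13 for YNL040W to 0.19 for GSH2, the glutathione synthetase, and none was called. PBI2 (YNL015W), an inhibitor of vacuolar proteinase B, was the most even of them, at −3.61, −3.59 and −3.84 at 20 µM, against −2.62 and −3.59 at 12 µM. At the upper end 6 mutants were above 1.5 at 12 µM. ZAP1 (YJL056C), the zinc-responsive transcription factor, was the highest, and its doses overlapped, at 2.34, 1.98 and 3.40 at 20 µM, against 1.87 and 3.42 at 12 µM from 1 probe (difference −0.07, 95% interval −1.90 to 1.76). AAH1, the adenine deaminase, and ERG26, of sterol synthesis, had differences of 0.14 (−0.69 to 0.98) and 0.28 (−1.04 to 1.59). FYV5, NDE1 and JJJ1 had differences of 1.55, 1.30 and 1.97 with no overlap, and none passed (adjusted p from 0.153 to 0.288). Without experiment 3 at 20 µM the difference of NDE1 was 0.74.

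Mutants with opposite signs at the doses numbered 210 (4.81%) when all 3 values at 20 µM lay on one side of 0 and both values at 12 µM on the other. The largest difference was that of SSN3 (YPL042C), the kinase of the Mediator complex, which scored 2.16, 1.72 and 3.29 at 20 µM, against −0.11 and −0.06 at 12 µM (difference 2.47, adjusted p = 0.090, and scaled 1.94, adjusted p = 0.081). CMD1 and IWR1, given above, had the opposite order. GUF1 (YLR289W), a GTPase of mitochondrial translation, scored 0.87, 0.98 and 1.37 at 20 µM, against −0.16 and −0.54 at 12 µM (difference 1.42, adjusted p = 0.060). MET18 (YIL128W), which delivers iron-sulfur clusters, scored 1.20, 0.88 and 1.63 at 20 µM, against −0.11 and −0.15 at 12 µM (difference 1.37, adjusted p = 0.060). ATP7 (YKL016C), of the ATP synthase, scored 0.75, 0.97 and 1.04 at 20 µM, against −0.09 and −0.48 at 12 µM (difference 1.20, adjusted p = 0.142). Most values at 12 µM in these mutants lay close to 0. A score near 0 at 12 µM was seen in few of the strongly affected strains, whereas most of all strains tested lay near 0. At 20 µM 121 strains averaged below −1.5, and 12 of them (9.92%) lay within 0.5 of 0 at 12 µM, while 202 averaged above 1.5, and 37 of them (18.3%) did.

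**Figure D3:**
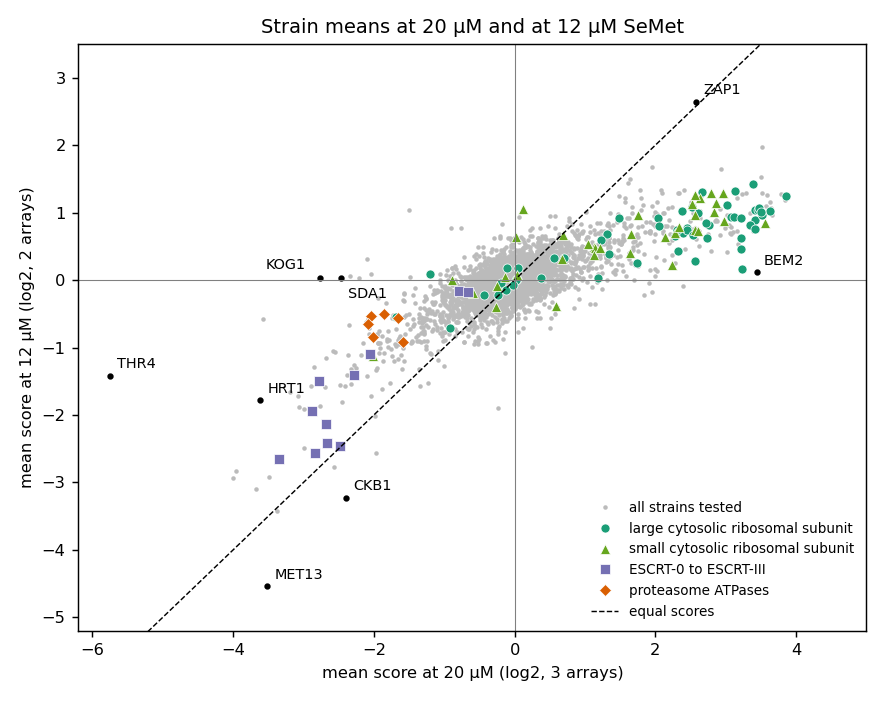
Mean relative fitness score of 4364 strains (grey) at 20 µM SeMet (horizontal axis, 3 arrays) and at 12 µM SeMet (vertical axis, 2 arrays), in log2 units, with members of 4 gene lists in colour and single mutants named. Most ribosomal mutants lie to the right of the line of equal scores, with a list median of 2.44 at 20 µM and 0.70 at 12 µM for the large subunit, whereas MET13 and CKB1 lie below that line on the left.

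Mutants of cytosolic ribosomal proteins mostly scored higher at 20 µM. In other parts of the translation apparatus, 35 mutants of translation factors and regulators had a median difference of 0.10, with 9 above and 6 below without overlap (13.4% and 20.5% of all strains), and 30 mutants of other tRNA modifications had one of 0.06, with 9 above and 4 below. Lists of genes are described by counts and medians only, beside those of all strains tested. For the 57 mutants of the large cytosolic ribosomal subunit, the median score was 1.85, 2.09 and 3.28 on the arrays of 20 µM, against 0.70 and 0.68 at 12 µM. The median difference was 1.62, and 1.14 without experiment 3 at 20 µM, against −0.09 for all strains. All values at 20 µM were above those at 12 µM in 40 of the 57 and below in 3, where 13.4% and 20.5% of all strains were. Against 0, limma called 43 higher and 2 lower at 20 µM, where it called 12.5% and 14.7% of all strains, and 0 higher and 0 lower at 12 µM, where it called 0.252% and 1.03%. Scaled, the median difference was 0.70, and it ran from 0.35 with quantile normalization to 0.96 without experiment 1 at 12 µM. This list kept its sign under each of these settings.

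The small subunit followed with smaller differences. Its 36 mutants had medians of 1.23, 1.39 and 2.17 on the arrays of 20 µM, against 0.62 and 0.68 at 12 µM. The median difference was 0.97 direct and 0.28 scaled, with 20 mutants above and 3 below without overlap (13.4% and 20.5% of all strains), and with quantile normalization the scaled median was 0.07. Members of both subunits did not all go the same way. RPL19A (YBR084C-A) scored 2.57, 3.495 and 5.497 at 20 µM, against 1.32 and 1.16 at 12 µM, whereas its paralogue RPL19B (YBL027W) scored −1.57, −0.84 and −1.19 at 20 µM, against 0.21 and −0.04 at 12 µM (difference −1.28, adjusted p = 0.099). Of pairs picked out after their values were seen, RPL40B averaged 3.42 at 20 µM and 0.76 at 12 µM, and RPL40A averaged −1.68 at 20 µM and −0.55 at 12 µM. RPS21A averaged 2.56 at 20 µM and 1.27 at 12 µM, and RPS21B averaged −2.01 at 20 µM and −1.12 at 12 µM. In the last pairs both paralogues were further from 0 at 20 µM, in opposite directions.

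Assembly of the ribosome gave a median difference of 1.21 over 30 mutants (0.69 without experiment 3 at 20 µM) and 0.51 scaled (0.22 with quantile normalization), with 21 above and 1 below without overlap (13.4% and 20.5% of all strains). The highest was LRP1 (YHR081W), a cofactor of the nuclear exosome read by 1 probe, which scored 2.87, 2.22 and 5.08 at 20 µM, against 0.66 and 0.78 at 12 µM (difference 2.67, adjusted p = 0.115). The lowest was SDA1. URB2, called lower at 20 µM as given above, was not in this list and is not among these counts. Of the 13 mutants of the Lsm1-7-Pat1 complex and of decapping, 12 were above without overlap and 0 below (13.4% and 20.5% of all strains), with a median difference of 1.07 direct and 0.67 scaled. These differences ran from 0.11 for the decapping enzyme DCP2 to 2.66 for LSM1. The scaled median stayed above 0 under each of the scalings and left-out arrays tried, between 0.41 and 1.18.

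For Elongator and the thiolation of wobble uridines the direct difference was not seen after scaling. The 12 mutants, whose genes modify the same tRNA position, had medians of 1.34, 1.60 and 2.51 on the arrays of 20 µM, against 0.83 and 0.71 at 12 µM. The median difference was 0.78 direct and −0.01 scaled, and the scaled median took either sign among the alternatives, from −0.21 to 0.20. UBA4 (YHR111W), which activates the sulfur carrier Urm1, scored 1.48, 1.24 and 2.62 at 20 µM, against 1.34 and 1.34 at 12 µM (difference 0.44, 95% interval −0.49 to 1.37). The UBA4 difference was 0.02 without experiment 3 at 20 µM, and 0.97 with the only probe that had all 5 values. ELP6 (YMR312W), of Elongator, scored 1.79, 1.88 and 3.03 at 20 µM, against 0.81 and 0.38 at 12 µM (difference 1.63, adjusted p = 0.129). The 50 mutants of mitochondrial ribosomes showed a small difference that scaling changed little, with a median of 0.31 at 20 µM and −0.08 at 12 µM (difference 0.40 direct and 0.35 scaled), 20 above and 2 below without overlap (13.4% and 20.5% of all strains).

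**Figure D4:**
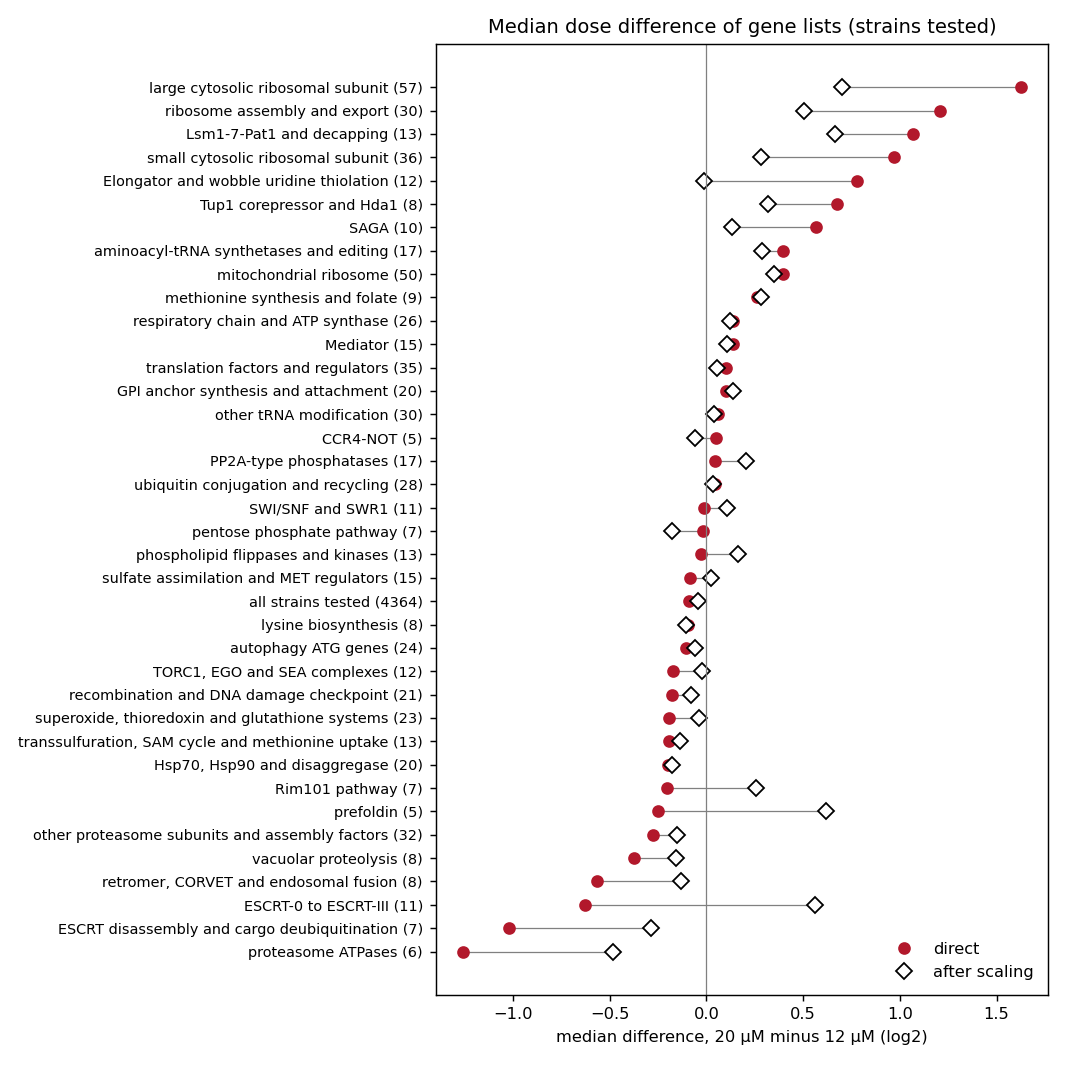
Median difference of 20 µM minus 12 µM SeMet (log2) for gene lists with at least 5 strains tested and for all strains, as deposited (filled circles) and after scaling to the same SD (open diamonds), with the number of strains in parentheses. The large ribosomal subunit is highest at 1.62 direct and 0.70 scaled, and the ESCRT list crosses 0, at −0.63 direct and 0.56 scaled.

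Mutants of protein degradation pathways mostly scored below 0 at 20 µM in the lists of ESCRT and of the proteasome ATPases, and lists were not tested against each other. In the 11 mutants of ESCRT-0 to ESCRT-III, limma called 11 lower than 0 at 20 µM and 9 at 12 µM, where it called 14.7% and 1.03% of all strains. Their medians were −3.14, −2.31 and −2.24 on the arrays of 20 µM, against −2.07 and −1.59 at 12 µM. The median difference was −0.63 direct, with 4 below and 0 above without overlap (20.5% and 13.4% of all strains), and 0.56 scaled. Single members were near 0 at 12 µM. HSE1, an ESCRT-0 subunit with the lowest scaled difference of the list (−0.38), had means of −0.79 at 20 µM and −0.16 at 12 µM. The sign of the scaled median was not stable, being −0.11 with quantile normalization and −0.25 without experiment 1 at 12 µM. SRN2 (YLR119W), of ESCRT-I, was the lowest of the list, at −2.89, −2.47 and −2.97 at 20 µM, against −1.93 and −1.06 at 12 µM (difference −1.28, adjusted p = 0.104). With the only SRN2 probe that had all 5 values the doses overlapped, at −2.89, −2.33 and −1.80 at 20 µM, against −1.94 and −1.16 at 12 µM (difference −0.79, adjusted p = 0.373). VPS36 (YLR417W), of ESCRT-II, was the highest, at −3.64, −2.39 and −1.40 at 20 µM, against −2.37 and −2.56 at 12 µM (difference −0.01, 95% interval −1.28 to 1.25, and −0.55 without experiment 3 at 20 µM).

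The 7 mutants that fail to take ESCRT-III apart or to recover ubiquitin from cargo had a median of −1.59 at 20 µM and −0.29 at 12 µM and a median difference of −1.02 (6 below and 0 above without overlap, where 20.5% and 13.4% of all strains were). limma called 6 of them lower than 0 at 20 µM and 2 at 12 µM (14.7% and 1.03% of all strains). On the common spread their median difference was −0.29, with 3 below and 0 above without overlap (16.3% and 11% of all strains). BRO1 (YPL084W), which brings the deubiquitinase Doa4 to endosomes and was read by 1 probe, scored −3.52, −3.23 and −2.81 at 20 µM, against −1.73 and −1.58 at 12 µM (difference −1.54, SE 0.24, adjusted p = 0.060). The scaled difference of BRO1 was −0.14 (adjusted p = 0.937). The ATPases of the proteasome, which unfold substrates, had the lowest median difference of the lists with at least 5 strains. The 6 mutants had medians of −1.11, −2.02 and −2.36 on the arrays of 20 µM, against −0.96 and −0.28 at 12 µM, and limma called 6 lower than 0 at 20 µM and 0 at 12 µM (14.7% and 1.03% of all strains). Their median difference was −1.26 (4 below and 0 above without overlap, where 20.5% and 13.4% of all strains were) and −0.49 scaled, which was 0.16 without experiment 2 at 12 µM. RPT1 (YKL145W) had the lowest difference, scoring −1.27, −1.85 and −3.00 at 20 µM, against −0.76 and −0.30 at 12 µM (difference −1.51, adjusted p = 0.154).

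The 32 other proteasome subunits and assembly factors had a median of −0.40 at 20 µM and −0.02 at 12 µM, with 6 below and 4 above without overlap, near the 20.5% and 13.4% of all strains. The lowest difference was that of RPN9 (YDR427W), a lid subunit, at −0.97, and the highest that of RPN4 (YDL020C), which encodes the transcription factor of the proteasome genes. RPN4 scored 1.14, 1.37 and 3.54 at 20 µM, against 0.27 and −0.01 at 12 µM (difference 1.89, adjusted p = 0.249, and 1.13 without experiment 3 at 20 µM). Prefoldin, a cochaperone of tubulin and actin folding, had medians of −0.70 at 20 µM and −0.83 at 12 µM over 5 mutants. The median of their differences was nevertheless −0.25 direct, −0.48 without experiment 3 at 20 µM, and 0.62 scaled. In the Rim101 pathway, which shares ESCRT proteins, the medians were −0.89 at 20 µM and −0.62 at 12 µM over 7 mutants. Among these, RIM8 and YGL046W were matched to the same locus (YGL045W), so this locus is counted more than once.

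Mutants of sulfur metabolism went both ways. CYS3 (YAL012W), the cystathionine γ-lyase of transsulfuration, scored 0.98, 2.05 and 2.81 at 20 µM, against 0.21 and −0.55 at 12 µM (difference 2.12, adjusted p = 0.114). SAM1 (YLR180W), an S-adenosylmethionine synthetase, scored 2.42, 3.48 and 5.02 at 20 µM, against 1.16 and 0.97 at 12 µM (difference 2.58, adjusted p = 0.104). Over 13 mutants of transsulfuration, the S-adenosylmethionine cycle and methionine uptake the median difference was −0.20, with 3 above and 3 below without overlap (13.4% and 20.5% of all strains), and it was 0.06 without experiment 3 at 20 µM. Over 9 mutants of methionine synthesis and folate metabolism it was 0.26 direct and 0.28 scaled, with 4 above and 0 below without overlap (13.4% and 20.5% of all strains). MET31 (YPL038W) and MET28 (YIR017C), both regulators of the sulfur genes, differed by 2.29 and −0.95. Over 15 mutants of sulfate assimilation and its regulators the median difference was −0.09, equal to that of all strains when rounded. Among translation factors, EAP1 (YKL204W), a binding protein of eIF4E, had a difference of 2.51 (adjusted p = 0.090). CDC33 (YOL139C), which is eIF4E itself, scored −0.53, −0.29 and −1.73 at 20 µM, against 0.27 and 0.15 at 12 µM (difference −1.06, adjusted p = 0.359, and −0.62 without experiment 3 at 20 µM).

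Strains that grew slowly without SeMet had the most positive dose differences. When 4361 strains were divided into 10 bins by their growth score, log2(untreated/start), the slowest bin (median growth score −1.18) had a median difference of 0.37 direct and 0.29 scaled, and 0.27 direct without experiment 3 at 20 µM. In that bin all values at 20 µM lay above those at 12 µM in 180 of 437 strains (41.2%) and below in 46 (10.5%). Over all strains tested these shares were 13.4% and 20.5%. In the second bin the median difference was 0.04, and in the other 8 bins it lay between −0.15 and −0.09, or between −0.08 and −0.04 without experiment 3 at 20 µM. The slowest bin held 6 of the 7 called strains that were higher and 4 of the 10 that were lower. Of all strains tested, 0.16% were called higher and 0.229% lower, and these calls depend on the fit as given above. Untreated pools enter both scores, as the denominator of the SeMet scores and the numerator of the growth score. What this adds to the pattern was not tested. The median growth score was −0.67 for the mutants of the large and −1.03 for those of the small ribosomal subunit, against 0.10 for all strains, and the part of slow growth in their differences was not tested.

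**Figure D5:**
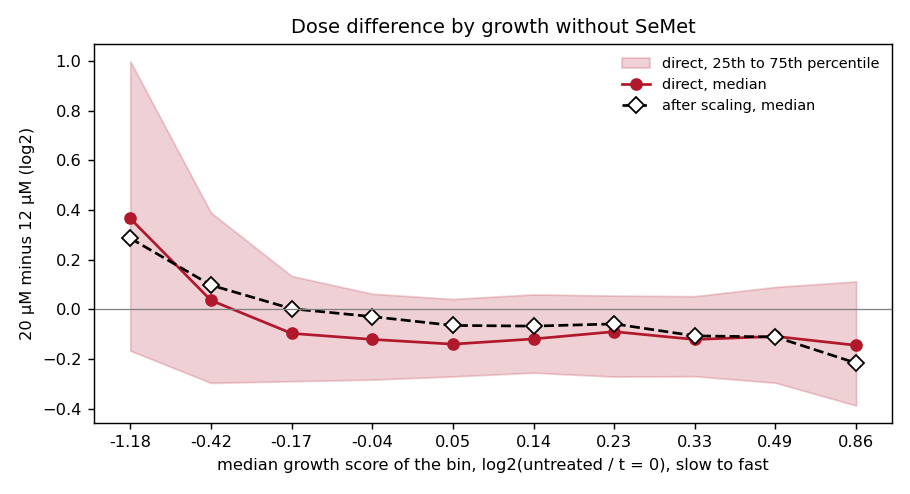
Difference of 20 µM minus 12 µM SeMet (log2) in 10 bins of strains ordered by growth score without SeMet, labelled by the median growth score of each bin. Filled circles are direct medians with the 25th to 75th percentile shaded, and open diamonds are scaled medians. The slowest bin is highest at 0.37 direct and 0.29 scaled, and the fastest lies at −0.15 and −0.22.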

How the data were processed

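Barcodes of pooled mutants were compared by two-colour hybridization on custom Agilent slides, with SeMet-treated cells (or cells after growth) in Cy3 and untreated cells (or the starting pool) in Cy5 on all 8 arrays. Dyes were not swapped, so dye and treatment cannot be told apart. For each probe the authors deposited 1 log2 ratio per array. They scanned the slides and read the images with GenePix instruments and software and normalized the spots with R scripts. The methods of normalization and background correction are not given in the sources used here, and no further normalization was applied to the direct comparison. The table lists 15744 probes. A value was present for 12138, and 2660 without a gene name (1662 with a value) were left out. The rest gave 4749 strains, of which 4688 matched RefSeq R64 by symbol or locus tag and 60 by synonym.

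On each array the log2 ratios of probes with the same gene name were averaged. A moderated linear model (limma 3.58.1, run in R 4.3.3) compared the doses, two-sided, over all 8 arrays as 3 groups, with Benjamini-Hochberg adjustment over 4364 strains and a threshold of 0.05. The doses alone leave few residual degrees of freedom, so the growth arrays share in the estimate of the spread. For the scaled comparison each array was divided by its SD over the 4321 strains with all 5 values and multiplied by the geometric mean of the 5 SDs (factors 0.866, 0.880 and 0.629 at 20 µM, and 1.62 and 1.29 at 12 µM). Repeated arrays of a strain had a median SD of 0.242 for 20 µM, 0.162 for 12 µM and 0.223 for growth. Precision is limited by the number of arrays. The model was tested on simulated data.

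The strains and the 39 gene lists described here were chosen with earlier results of these data known. Named strains are the 10 lowest and 10 highest differences without overlap among strains with all 5 values and at least 2 probes, those called directly or scaled, the lowest and highest members of each list, those above 1.5 or among the 10 lowest at 12 µM, and the 6 largest of opposite sign. Lists got no test.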

Additional observations from a re-analysis of the deposited data

Results flagged for a closer look

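These strains stood out because limma found a difference between the doses. As deposited, the differences of 20 minus 12 µM that passed downward were those of SDA1 (−2.51), URB2 (−2.41), GWT1 (−2.24), GPI16 (−2.13), HRT1 (−1.83), IWR1 (−1.68), SMD1 (−1.53), PAF1 (−1.50), PPQ1 (−1.29) and TEF4 (−1.27). Those that passed upward were RPL8A (2.12), YLR358C (2.07), ARX1 (2.00), RPS0A (1.81), RPS10B (1.57), ECM30 (1.42) and RPS21A (1.29). Adjusted p-values lay between 0.0388 and 0.0428. On the common spread the strains were SDA1 (−1.94), URB2 (−1.87), IWR1 (−1.80), GPI16 (−1.67) and MET13 (3.77), with adjusted p between 0.0201 and 0.0292. SDA1, URB2, GPI16 and IWR1 passed in both comparisons, and IWR1 rests on different probes at the doses.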

How the results depend on the processing

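The direct count of 17 strains was 0 with the 5 SeMet arrays only (lowest adjusted p 0.130, 554 strains at an unadjusted p under 0.05), 0 with a trended prior (0.0507, 598 strains) and 0 when the spread was moderated over every strain with a value, an alternative chosen after seeing the data (0.0526, 562 strains). Array weights gave 37 calls, 15 lower and 22 higher. Leaving out 1 array gave between 0 and 56 calls, with 56 and 52 without experiments 1 and 3 at 20 µM. A robust prior, all 5 values, probe medians, at least 2 probes, centring and common probes gave between 13 and 17. The scaled count of 5 was 0 with the 5 SeMet arrays only (397 unadjusted), 3 with a trended prior, 1 with array weights, 51 (12 lower, 39 higher) with arrays divided by their median absolute value, 16 with the distance between the 10th and 90th percentile, 2 with quantile normalization and 1 with scores divided by the concentration. Leaving out 1 array gave between 0 and 7, with 1 and 0 without experiments 2 and 3 at 20 µM (410 and 224 unadjusted) and 3 without experiment 2 at 12 µM. The cause of these changes was not tested.

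The doses share experiment numbers 1 and 2, but no label says that a number marks a shared culture. The paper describes pooled strains grown beforehand, from which cultures without SeMet and with either dose were started. Same-numbered arrays may therefore share a starting pool and an untreated reference. The doses were not paired. Deviations of same-numbered arrays correlated at r = −0.257 over 4330 strains. This cannot decide the pairing, since the 2 arrays of the lower dose deviate from their mean by equal and opposite amounts. With the experiment number as a replicate block on the 5 SeMet arrays, 0 strains were called directly (392 unadjusted) and 1 after scaling. Without the block these arrays also gave 0 direct calls (554 unadjusted). Over 583 alternative values of 36 named differences, 404 kept their side of the threshold, 163 lost it, 16 gained it and 0 changed sign. Of 780 alternative list medians, 92 moved by more than the SD between the arrays of 20 µM. Signal over background was not part of the values, and strains read by 1 probe have no check between probes.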
